A study of Mus musculus with 8 samples.

Results

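Mras and 8 other small GTPases of the Ras family (Rras, Rras2, Hras, Nras, Eras, Rap1a, Rheb and Rit1) were followed in mRNA-seq data of mouse embryonic stem (mES) cells with and without Trim71, an RNA-binding ubiquitin ligase. The members were taken by gene symbol, and all 9 were among the 13558 transcripts of the deposited table. Mras was selected on the genotype contrast of these same libraries, since the study had tested the 3′UTR of Mras among those of changed transcripts, and the other members were chosen with that result in view. The differences between genotypes given for the 9 members are therefore a description and carry no test.

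The table held 8 libraries of male C57BL/6 mES cells kept in fetal calf serum with LIF and sorted for the surface antigen SSEA-1 before lysis. In all of them both Trim71 alleles were floxed at the last exon, and in the study's methods recombination was driven by CreERT2, a Cre recombinase that tamoxifen switches on, expressed from the Rosa26 locus. The 4 libraries labelled WT (Trimfl/fl) kept the floxed alleles, for which the study's methods name the solvent DMSO as the control treatment, and the 4 labelled KO (Trim-/-) came, per the labels, from cells given 500 nM 4-hydroxytamoxifen for 2 days and then grown for 7 days or longer; the study's methods give another dose and culture time. A pair of cell clones was used: clone E3 gave 3 KO and 2 WT libraries, and clone 1 gave 1 KO and 2 WT libraries. The labels do not say whether libraries of 1 genotype and clone came from separate derivations, so the spread between them may be in part technical. Values are normalized read counts from which the authors had subtracted a clone effect. Recovered sequencing depth, the number of whole reads behind the deposited values, ranged from 6528131 (WT replicate 2) to 24352560 reads (WT replicate 3) per library.

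Ras family proteins are molecular switches that are active when bound to GTP and inactive when bound to GDP. Exchange factors load them with GTP, GTPase-activating proteins (GAPs) switch them off, and most of them need a lipid anchor to reach the membrane where they meet their effectors. Hras and Nras activate the Raf, MEK and ERK kinases, the cascade through which FGF moves mES cells out of the ground state. Mras pairs with Shoc2 and a protein phosphatase 1 subunit to remove an inhibitory phosphate from Raf. Rras and Rras2 act in integrin activation and in growth signalling, Rap1a controls cell adhesion, Rheb switches on mTORC1, and Rit1 acts in stress and growth factor responses without a lipid anchor of its own. Eras is expressed in embryonic stem cells, is active without an upstream signal and promotes their growth through PI3 kinase.

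Positions are from GENCODE M21 on GRCm38, the assembly that the authors' build mm10 names. Mras is encoded by the minus strand of chromosome 9 (99385420 to 99437381), where its 6 exons give a transcript of 4701 bases with a 3′UTR of 2985 bases. The 3′UTRs of the others ran from 216 bases in Eras to 3727 bases in Nras. Trim71 is itself a well-known target of the let-7 microRNAs, as are Ras transcripts in several species, so the 3′UTRs were searched on the sense strand for CTACCTC, the letters that pair with the let-7 seed. The 9 mature let-7 family members kept from RefSeq (GRCm38) share that seed, bases 2 to 8. Any entries on a single chromosome were left out, so the list may not be complete. The seed is in capitals here in the best known let-7 microRNA, and the only match among the 9 members is shown next to it with the pairing letters in capitals:
let-7a-5p: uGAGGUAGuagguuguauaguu
Nras site: cctcttcagaataaCTACCTCc

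The Nras window lies within the 3′UTR at chr3:103064360-103064381 on the plus strand, with the match starting 187 bases into the 3′UTR. Across the 12425 3′UTRs searched, 10.1% held a match, and among the 1235 with a length near that of Nras (80% to 125% of it) 20.2% did. The 3′UTR of Mras held none, nor did those of the other 7. A match of this length is a description and not a proven site.

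The targeted gene was examined first. Trim71 averaged 568.3 ± 249 in the KO and 2522 ± 367 (SD, n = 4) in the WT libraries. The groups were apart, with KO lower, and an exact permutation test (two-sided) gave p = 0.0286, which is the lowest that 70 assignments allow. Since only the last exon is removed, reads of the others can still be counted. The pluripotency markers Pou5f1, Nanog, Sox2, Esrrb and Zfp42 were all in the table. Their log2 fold changes, KO minus WT, ran from -0.14 (Nanog) to 0.25 (Pou5f1). The fucosyltransferase Fut4, listed with them, was low at a mean of 15.4 in KO and 19.3 in WT. The criterion used below asked for an unadjusted limma p under 0.05 together with a change of 1.5-fold or more, and it called 576 transcripts, 4.25% of all (1.76% higher and 2.49% lower in KO). After adjustment 0 had a limma p under 0.05, against 1232 (9.09%) at the unadjusted level, and 4 did with limma's voom on recovered reads blocked by day. When the 6 libraries of days 3, 4 and 5 were blocked by day, the criterion called 1015.

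Mras had the largest difference between genotypes of the 9 members. It was listed at 233, 221, 234 and 263 normalized read counts in KO replicates 1 to 4. In WT replicates 1 to 4 it was at 69.3, 114, 104 and 97.4. The lowest KO library, replicate 2, was well above the highest WT library, replicate 2, so the groups did not overlap. KO averaged 238 ± 18.0 and WT 96.2 ± 19.1 (SD, n = 4 each), a 2.43-fold difference on the log2(value + 1) scale (log2 fold change 1.28, SE 0.17).

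The depth behind Mras was modest. The whole reads recovered from the deposited values were 233, 245, 246 and 202 in KO replicates 1 to 4. The WT replicates 1 to 4 had 90, 61, 222 and 79. For the 61 reads of WT replicate 2 the exact Poisson 95% interval ran from 46.7 to 78.4 reads, or from 82.2 to 138 normalized read counts before the clone correction. The highest upper bound of a WT library was thus below the lowest lower bound of a KO library, 189 (KO replicate 2). These intervals cover counting error only.

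Both clones showed the difference in Mras. In clone E3 the 3 KO libraries averaged 229 and the 2 WT libraries 109, a log2 fold change of 1.07 (SE 0.16). In clone 1 the single KO library was at 263 and the 2 WT libraries averaged 83.4, a log2 fold change of 1.67 without a test. The interaction of genotype and clone for Mras was 0.60 (SE 0.31), with an unadjusted limma p of 0.103 and an adjusted p of 1.00. The clone correction had moved Mras by 6.09 normalized read counts in each clone, 3.68% of its mean.

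**Figure D1:**
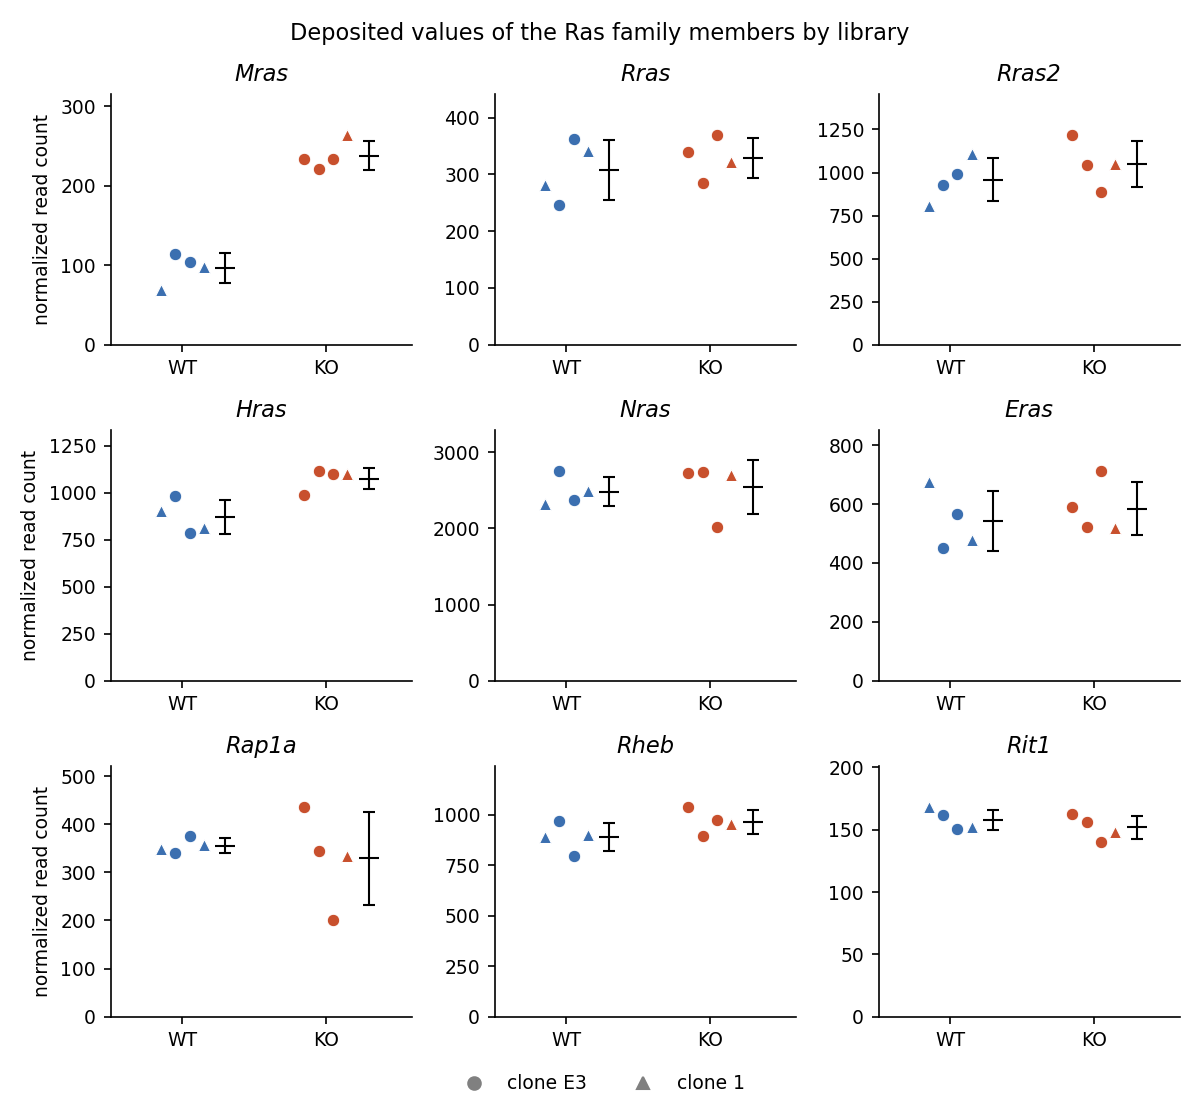
Deposited normalized read counts of the 9 members in each library (y axis, from 0), by genotype (x axis), with circles for clone E3 and triangles for clone 1; black bars are the mean and SD of 4 libraries. The KO libraries of Mras, 221 to 263, all lie above its WT libraries, 69.3 to 114, and among the others the groups are apart in Hras alone.

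Hras and Nras, the classical Ras members, differed less. Hras was at 991, 1115, 1099.7 and 1102 in KO replicates 1 to 4 and at 904, 983, 788 and 815 in WT replicates 1 to 4. Its groups did not overlap either, although KO replicate 1, at 991, was hardly above WT replicate 2, at 983. The means were 1077 ± 57.8 and 872 ± 88.8 (SD, n = 4), a log2 fold change of 0.31 (SE 0.12) that is under the 1.5-fold limit. Over all transcripts 10.1% had groups that did not overlap, and 5.48% were apart with KO higher; as the members were chosen on this contrast, nothing is read from 2 of 9. Nras, the most abundant member, was at 2724, 2740.4, 2012 and 2696 in KO and at 2320.4, 2747, 2369 and 2489 in WT. Its groups overlapped, with means of 2543 ± 355 and 2481 ± 191 (SD, n = 4) and a log2 fold change of 0.03 (SE 0.15).

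The R-Ras pair overlapped between genotypes. Rras ranged from 285 to 369 in KO and from 247 to 362 in WT, with a log2 fold change of 0.11 (SE 0.17). Rras2, also known as TC21, ranged from 885 to 1216 in KO and from 806 to 1106 in WT, with a log2 fold change of 0.13 (SE 0.16). Neither difference was larger than its standard error.

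Rap1a and Rit1 were the only members with a lower fitted level in KO, and both differences were smaller than their standard errors. Rap1a was at 435, 345, 202 and 334 in KO replicates 1 to 4 and at 349, 339.7, 375 and 357 in WT replicates 1 to 4. The coefficient of variation was 29.2% in KO and 4.28% in WT, with the highest and the lowest of the 8 libraries both KO. Its log2 fold change of -0.15 (SE 0.24) was 0.04 without KO replicate 3. Rap1a is uncertain as a single gene, since up to 559 bases of its transcript recur at 91.8% to 98.6% identity in 2 processed pseudogenes, and how reads of such copies were assigned is not given in the sources used here. Rit1 ranged from 140.5 to 162 in KO and from 151 to 168 in WT, with a log2 fold change of -0.06 (SE 0.11).

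Rheb ranged from 894 to 1037 in KO and from 798 to 969 in WT, with a log2 fold change of 0.12 (SE 0.12). Rheb and Nras hold short stretches, at most 9.42% and 4.38% of the transcript, that recur in many other transcripts at 90% identity or more. No pair of the 9 members shared such a stretch of 100 bases or longer. Eras was at 590.0, 521, 711 and 517 in KO and at 673, 451, 567 and 479 in WT, with overlapping groups and a log2 fold change of 0.11 (SE 0.18). The library kit does not mark strand, and 12.5% of the Eras exon bases (135 bases) lie opposite exons of Pcsk1n, whose values ranged from 1 to 103, so reads from these bases cannot be assigned.

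Of the 9 members, Mras alone was past the criterion and 0 of the other 8 were, beside 4.25% of all transcripts, and nothing is read from this count. The median log2 fold change of these 8 was 0.11, against 0.00 over all transcripts. The residual spread between libraries, after genotype and clone, ran from an SD of 0.09 (Rit1) to 0.36 (Rap1a) on the log2 scale, and the median of the 11089 transcripts with a mean of at least 50 was 0.23. Mras stood at 0.24, so its libraries scattered about as much as those of a typical transcript.

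**Figure D2:**
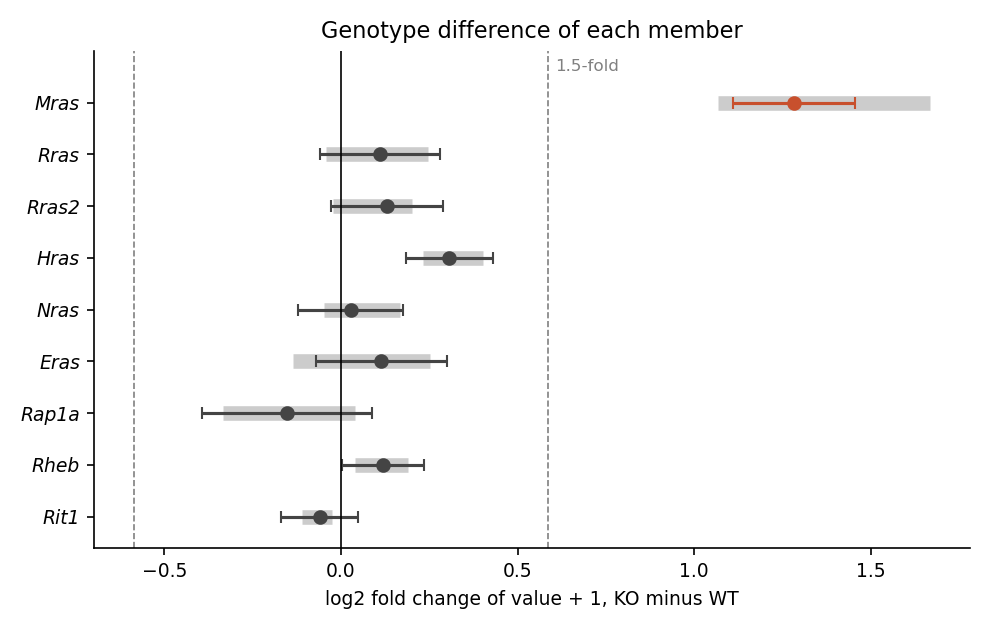
Log2 fold change of value + 1, KO minus WT (x axis), for each member; points and bars are the estimate and SE of the limma fit over 8 libraries, grey bands the range over all 22 settings, and dashed lines a 1.5-fold change. Mras, at 1.28, is the only point beyond a dashed line, and its band runs from 1.07 to 1.67.

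Levels were compared between members per kb of exon, since a longer transcript gives more reads. In WT the order was Nras at 555 ± 42.6 normalized read counts per kb (SD, n = 4), Eras at 504 ± 93.1, Rheb at 498 ± 39.2, Rras2 at 421 ± 55.0, Rras at 309 ± 53.3, Hras at 281 ± 28.6, Rap1a at 148 ± 6.32, Rit1 at 131 ± 6.65 and Mras at 20.5 ± 4.05. From Nras down to Hras the WT ranges of neighbours overlapped. Even so, in the deposited values Rheb was above Rras2 and Rras2 above Rras in 4 of 4 libraries of either genotype. The order of Eras and Rheb and that of Rras and Hras held in 2 of 4 WT libraries. From Hras to Rap1a, from Rap1a to Rit1 and from Rit1 to Mras the WT ranges were apart. Mras was thus the least abundant member in every WT library, and Rit1, the next, was 6.42 times as high. In KO the level of Mras was 50.6 ± 3.83 per kb (SD, n = 4), still below the lowest value of any other member, 83.9 per kb (Rap1a, KO replicate 3). This rank in KO rests on the annotated exon lengths, 4701 bases for Mras and 1204 for Rit1. Before division by length Mras in KO, at 221 to 263, lay above Rit1, at 140.5 to 162. Which isoforms the cells expressed was not examined, so the sizes of gaps per kb depend on the annotation. Of the summed level per kb of the 9 members, Mras made up 0.714% ± 0.14 in WT and 1.63% ± 0.14 (SD, n = 4) in KO. The only change of rank was that of Hras and Rras, whose ranges overlapped in both genotypes. All these levels are deposited values, and some orders depend on the clone correction. With it undone, WT replicate 4 had Rheb at 872 and Rras2 at 1182 normalized read counts, and WT replicate 2 had Rap1a at 335 and Rit1 at 171. Per kb of their exons (1784, 2275, 2407 and 1204 bases) Rras2 then lay above Rheb, and Rit1 above Rap1a.

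**Figure D3:**
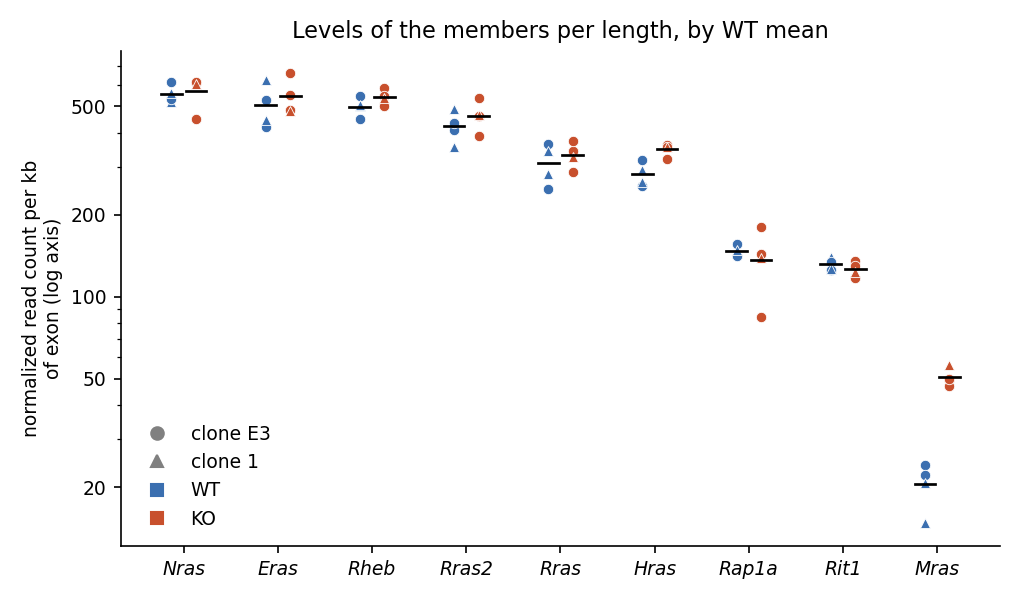
Normalized read counts per kb of exon (y axis, log axis) of the 9 members in each library, ordered by their WT mean; blue is WT, red KO, circles clone E3, triangles clone 1 and black lines group means. Mras stands lowest in both genotypes, at 20.5 per kb in WT and 50.6 per kb in KO.

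The clones were compared next, a contrast that the choice of members had not used. Because the authors had subtracted the clone effect, it was read from the recovered reads with limma's voom, with genotype as a term. Of the 13258 transcripts with recovered reads 0 had an adjusted limma p under 0.05, and 895 (6.75%) an unadjusted one. Among the members, Eras alone was below 0.05 before adjustment. With the correction undone Eras was at 715, 646 and 836 normalized read counts in KO replicates 1 to 3 and at 576 and 692 in WT replicates 2 and 3, all of clone E3. In clone 1 it was at 392 in KO replicate 4 and at 548 and 354 in WT replicates 1 and 4. Every library of clone 1 lay below every library of clone E3, which held, in either direction, for 8.0% of transcripts. The exact Poisson 95% intervals of WT replicate 1 (507 to 592) and WT replicate 2 (515 to 642) overlapped. Days 1 and 5 held only clone 1, and days 2, 3 and 4 only clone E3. Clone and day therefore cannot be told apart. The fit had no day term and took libraries of the same day as independent.

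The log2 difference of Eras, clone 1 minus clone E3, was -0.65 (SE 0.20), with an unadjusted limma p of 0.0111 and an adjusted p of 0.721, so it does not pass over all transcripts. Limma on log2(value + 1) with the correction undone gave -0.68 and an adjusted p of 0.536, with 0 transcripts past an adjusted p of 0.05 and 1085 (8.18%) at the unadjusted level. The difference ran from -0.86 to -0.50 when single libraries were left out. The correction shifted Eras by 125 normalized read counts in each clone, 21.04% of its mean, more than any other member. For the other 8 members the unadjusted limma p was at least 0.175, and Mras differed by 0.04 (SE 0.19) between clones. The interaction of genotype and clone was past an adjusted limma p of 0.05 for 0 of the 9 members, both as deposited and with the correction undone, and for 0 at the unadjusted level (1, Mras, without WT replicate 4), while 12 transcripts (0.0885%) in all were past the adjusted and 351 (2.59%) past the unadjusted threshold.

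**Figure D4:**
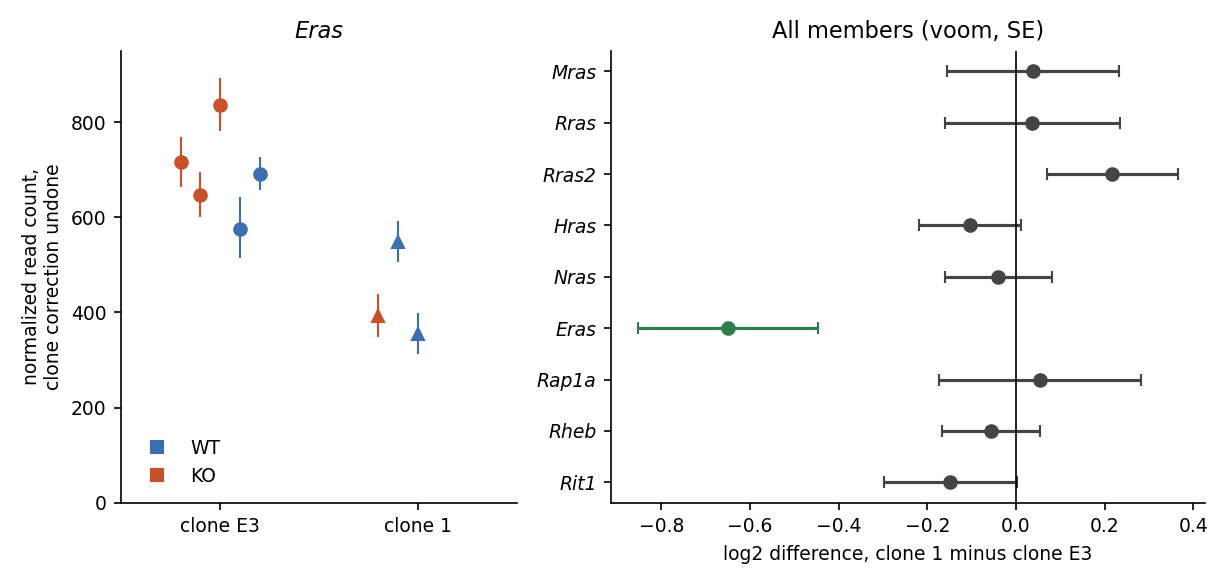
Left, Eras in normalized read counts with the clone correction undone (y axis, from 0), by clone, with exact Poisson 95% intervals of the reads; right, log2 difference of clone 1 minus clone E3 for each member with SE from voom. Eras in clone 1, 354 to 548, lies below clone E3, 576 to 836, and the estimates of the other members lie nearer to 0.

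Genes that act with the Ras family were read from 8 lists: other Ras-like GTPases, exchange factors, GAPs, Shoc2 with its partners and scaffolds, the Raf, MEK and ERK kinases, other effectors, enzymes of the lipid anchor, and genes that ERK signalling induces. Of 119 genes listed 104 were in the table, and 5 were past the criterion (3 higher and 2 lower in KO), or 4.81% against 4.25% of all transcripts. After adjustment over all transcripts 0 of the 104 had a limma p under 0.05. At the unadjusted level 8 of the 104 did, beside 9.09% of all transcripts. Blocked by day, 6 were past the criterion (3 higher and 3 lower), or 5.77% against 7.49%.

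Partners of Mras are in the Shoc2 list. Of its 9 genes present, 0 were higher and 1 was lower past the criterion, beside 1.76% and 2.49% of all transcripts. Their median log2 fold change was 0.03. The lower gene was Ksr1, a scaffold that holds Raf, MEK and ERK together. It was at 144, 178, 278 and 173 in KO replicates 1 to 4 and at 339.5, 276, 338 and 315 in WT replicates 1 to 4, with KO replicate 3 just inside the WT range. The log2 fold change was -0.76 (SE 0.22), with an unadjusted limma p of 0.0109 and an adjusted p of 0.452. Leaving out KO replicate 4 gave -0.67 (unadjusted limma p 0.0627), which was not past the criterion. Shoc2 itself was not past the criterion, at a log2 fold change of -0.30 (SE 0.16).

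Of the 12 exchange factors present 1 was higher and 1 lower past the criterion, beside 1.76% and 2.49% of all transcripts. Their median log2 fold change was -0.20. Rapgef3, also called Epac1, which loads Rap proteins in response to cyclic AMP, rose from a WT range of 32.0 to 167 to a KO range of 197 to 303. Its groups did not overlap, with a log2 fold change of 1.24 (SE 0.48), an unadjusted limma p of 0.0362 and an adjusted p of 0.522. Leaving out KO replicate 4 gave a log2 fold change of 0.65 (unadjusted limma p 0.250), and without KO replicate 3 or WT replicate 2 the unadjusted limma p was 0.0618 or 0.0769, so the call was lost in each. Rasgrp1, which responds to diacylglycerol, had a log2 fold change of -2.33 (SE 0.98, unadjusted limma p 0.0477, adjusted 0.543). It was at 72.0, 48.2, 28.6 and 1 in KO and at 73.1, 65.03, 65.3 and 136 in WT. Its KO replicate 4 was listed at the floor of 1, and without that library the log2 fold change was -0.48. Rasgrp1 was not past the criterion when blocked by day (-2.56, unadjusted limma p 0.105), in the linear model (limma p 0.129) or with no clone term (limma p 0.0997).

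Among 15 ERK-responsive genes present, 2 were higher and 0 lower past the criterion, beside 1.76% and 2.49% of all transcripts. The median log2 fold change was 0.24, against 0.00 over all transcripts. Nothing is read from counts in a list this short. Spry4, a feedback inhibitor of receptor tyrosine kinase signalling, was at 1245, 1677, 1500.5 and 1919 in KO replicates 1 to 4 and at 709.5, 1384, 892 and 899 in WT replicates 1 to 4. KO replicate 1 lay below WT replicate 2, so the groups overlapped, and the log2 fold change was 0.71 (SE 0.24, unadjusted limma p 0.0221, adjusted 0.485). Etv4, an Ets transcription factor downstream of FGF, ranged from 2594 to 3658 in KO and from 1139 to 2426 in WT, without overlap. Its log2 fold change was 0.75 (SE 0.25, unadjusted limma p 0.0196, adjusted 0.483). Without KO replicate 4 the changes of Spry4 and Etv4 were 0.40 and 0.42, and neither was past the criterion.

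In the 5 other lists 0 genes were past the criterion, with medians from -0.16 (other effectors) to 0.03 (lipid processing). Here the gene with the smallest unadjusted limma p stands for each list. Of 19 other Ras-like GTPases this was Rasl11a, at 31.2 ± 6.25 in WT and 47.8 ± 8.40 (SD, n = 4) in KO, with a log2 fold change of 0.58 and an unadjusted limma p of 0.0208. At 1.496-fold Rasl11a was just under the limit. It was past the criterion with no clone term, in the linear model and with upper quartile scaling. Blocked by day or in clone E3 alone it was not. Of 18 GAPs the gene was Rasa4, with 0.45 (unadjusted limma p 0.0282), and of the 7 Raf, MEK and ERK kinases Map2k2, which encodes MEK2, with 0.22 (0.082). Of 14 other effectors it was Rgl1, which activates Ral proteins, with -0.47 (0.104), and of 10 enzymes of lipid processing Zdhhc9, a palmitoyltransferase for Hras and Nras, with -0.22 (0.153). Counts at an unadjusted limma p under 0.05 were 2, 1, 0, 0 and 0 in these lists, beside 9.09% of all transcripts.

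**Figure D5:**
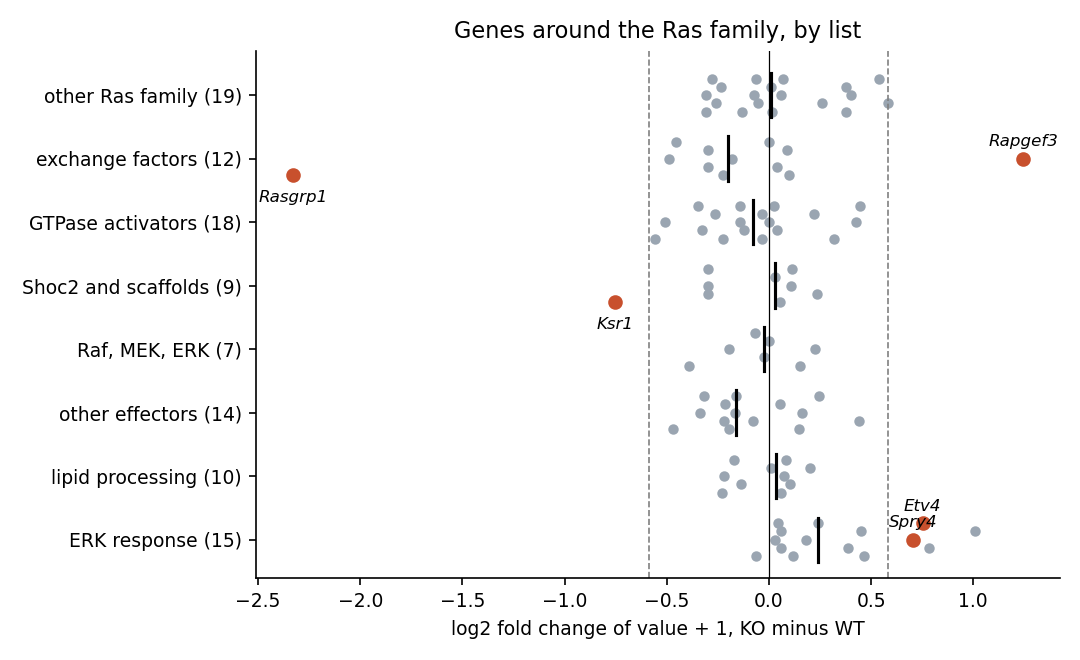
Log2 fold change of value + 1, KO minus WT (x axis), of the 104 genes of the 8 lists (y axis, number present in brackets; vertical positions within a list only separate points); red points are past the criterion, black bars list medians and dashed lines a 1.5-fold change. The 5 red points are Rapgef3, Etv4 and Spry4 on the right and Ksr1 and Rasgrp1 on the left.

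Markers of other cell types were read from 4 lists. The 6 primitive endoderm markers were all present, and their summed level was 271 to 577 in KO and 91.6 to 464 in WT, with a median log2 fold change of 1.04. Gata6, Gata4, Sox17 and Sox7 had log2 fold changes of 1.79, 1.41, 1.34 and 0.74, Dab2 -0.34 and Pdgfra -0.48, all with an unadjusted limma p of at least 0.106 and thus 0 past the criterion. Blocked by day, Dab2 and Pdgfra were lower past it. Neural markers (4 of 5 present) summed to 712 to 983 in KO and 850.4 to 1504 in WT. Tubb3, Pax6 and Nes had log2 fold changes of -0.67, -0.56 and -0.50, and Sox1 went the other way at 0.31. Their unadjusted limma p was 0.0739, 0.349, 0.0161 and 0.460 in that order, and Nes was below 1.5-fold. Summed levels in KO and WT were, for fibroblast markers (3 of 6), 89.5 to 170.0 and 67.9 to 139, and the muscle marker Des (1 of 4) was at 311 to 432 and 257 to 496. Col3a1, Postn, Lum, Fabp7, Myod1, Actc1 and Tnnt2 were not in the table. The part of such cells in the differences above was not tested. In bulk RNA a change in the number of cells that express a gene and a change in its level per cell cannot be told apart.

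The transcripts most like Mras over the 8 libraries were Slco4a1, Atox1, Rassf7, Ckap4 and Tprgl, with Pearson correlations of log2(value + 1) from 0.98 to 0.99 among 11088 transcripts with a mean of at least 50. All 8 points share the same libraries and genotype split, so these values are a description. Slco4a1, an organic anion transporter, was close to Mras also in level, with means of 242 ± 15.1 (KO) and 109 ± 23.2 (WT; SD, n = 4). Among the members Hras had the highest correlation with Mras, 0.80, and Rit1 the lowest, -0.49.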

How the data were processed

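The authors sequenced TruSeq libraries of mRNA, taken from total RNA with poly-T beads. They called bases with CASAVA 1.8 and aligned reads to mm10 with TopHat2 and Bowtie2 2.2.1 (versions per the submitters' processing notes). In Partek 6.6 the authors counted reads per RefSeq transcript, normalized with DESeq2 and corrected for batch. They floored values at 1 and kept transcripts with a group mean of at least 10. The deposited values are thus a normalized signal, not counts. In all 13350 transcripts without a floor value, a clone effect on the linear scale was gone (largest relative remainder 6.33e-06). A script solved for whole reads, scaled by a factor for each library and moved by a shift for each transcript. It found a unique solution for 13258 transcripts (97.8%), all members included, which gave 100% of their values back to the printed precision. Read totals are over these transcripts. No per-sample column was left unused.

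All transcripts were fitted with limma 3.58.1 (R 4.3.3), using log2(value + 1) and a model of genotype plus clone. The pseudocount of 1 understates changes of low transcripts. Benjamini-Hochberg adjustment ran over all transcripts. The alternative called the linear model used untransformed values and an ordinary t-test in place of limma's p. Fits and recovery were tested on simulated data. The members and lists were chosen with earlier results of these data known. Named genes were the members, Trim71, per list those past the criterion or else the smallest p, and the 5 transcripts most like Mras. Annotation came from GENCODE M21, and Python 3.11.15 did the rest. Alternatives were pseudocount, filters, clone term, scale, prior, scaling, single clones, libraries left out and, chosen after seeing the data, fits on recovered reads and the clone contrast.

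The labels give a day per library, and days 3, 4 and 5 each hold 1 KO and 1 WT library of the same clone. Deviations from group means of these pairs correlated at 0.58, 0.60 and -0.11 across transcripts as deposited, and at 0.65, 0.71 and 0.58 with the correction undone, against a median of -0.20 for the 13 pairs of different days. The day was therefore also used as a replicate block.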

Additional observations from a re-analysis of the deposited data

Results flagged for a closer look

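A library far from the other 3 of its group was looked for in 40 groups of 4 values, those of the members, Trim71 and the named pathway genes, by Dixon's 95% critical value. It was found in 4 groups, where chance gives about 2. Hras in KO replicate 1 was at 991, below the other KO libraries at 1100 to 1115; with the clone correction undone the gap was no longer past the critical value (0.22 of the range). Nras in KO replicate 3 was at 2012, below 2696 to 2740, with 2232 reads recovered, and the gap was 0.80 of the range with the correction undone. Rasgrp1 in WT replicate 4 was at 136, above 65.03 to 73.1. Rgl1 in KO replicate 2 was at 22.6, below 41.6 to 44.0, with 23 reads recovered. The largest gap of that group was still past the critical value with the correction undone (0.87 of the range). The cause was not tested. The interaction of genotype and clone was past an adjusted limma p of 0.05 for 0 of the 9 members. Mras was past the unadjusted threshold without WT replicate 4, and clone 1 has a single KO library.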

How the results depend on the processing

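Mras kept its direction in all 22 settings, from a log2 fold change of 1.07 (clone E3 alone, and the lowest with a library left out; the highest was 1.38) to 1.67 in clone 1 alone, which is further from the 1.28 of all libraries than the residual SD. With the replicate block by day (6 libraries) it was 1.18. Of the other members 0 were past the criterion in any setting with a test. Hras, Rheb and Rit1 kept their sign in all settings, whereas the sign turned in 7 settings for Nras, in 2 for Eras and in 1 each for Rras, Rras2 (-0.02 with the block) and Rap1a. Trim71 was lower in KO throughout, by -2.70 to -1.81 with a library left out. The interaction count at an adjusted limma p stayed at 0 in the fits run, with 1 (Mras) at the unadjusted level without WT replicate 4, and could not be fitted without KO replicate 4.

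Transcripts past the criterion (576) numbered 315 at a mean of at least 50, 382 in the linear model, 278 in clone E3 alone, 1015 with the replicate block, 1052 with that block and voom, and 260 (without KO replicate 4) to 835 with a library left out. Pathway genes past it (5) numbered 2 in clone E3 alone (Rapgef3 and Rasa4), 8 with the block and voom, and with a library left out from 1 (without KO replicate 4: Rasa4, none of the 5) over 3 (without KO replicate 3) to 8 (without KO replicate 1 or WT replicate 2). Apart from the filter and fewer libraries, the cause was not tested. Clone 1 has a single KO library, and Mras rests on as few as 61 reads, which limits both.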
